A study of Equus caballus with 17 samples.

Results

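The miR-8908 family of the horse was represented by 4 mature microRNAs, eca-miR-8908f, eca-miR-8908g, eca-miR-8908j and eca-miR-8908k (the prefix eca-, for the horse, is left out below), among 274 annotated mature names in a small RNA count table. They were taken by name, and where a name had several precursor entries the 1 with the highest summed count was chosen. The family is treated as selected on its fold changes against Infant, which were known for g, j and k when it was proposed. The table gave counts for 17 horse (Equus caballus) libraries made from testis at 4 stages, Infant, Pre-puber and Puber with 3 libraries each and Adult with 4, and from Sperm with 4, to follow small RNAs through testis development and in sperm. No treatment or genotype is given in the labels for any group, and ages and breeds are not given in the sources used here. Infant 31a and 31b share a title number, as do Pre-puber 3a and 3b. Nothing in the labels states that replicates came from different animals. The p-values therefore reflect the spread among these libraries, which may be technical.

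A microRNA is cut from a hairpin precursor to a short mature strand that guides Argonaute proteins to complementary sites in messenger RNAs. The miR-8908 names belong to a horse family with many numbered precursors, and closely similar copies can share reads. Mammalian X chromosomes carry a fast-evolving cluster of testis microRNAs, the miR-506 family, between the genes SLITRK2 and FMR1. The family of miR-34 and miR-449, by contrast, is conserved, is located on autosomes and is abundant in germ cells from meiosis on. Mature spermatozoa hardly transcribe, and their small RNA is largely inherited from earlier germ cells or taken up on the way through the epididymis.

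In the RefSeq annotation of the horse TB-T2T assembly, used here for gene names and gene order, 28 miR-8908 precursors with 14 letter names all lay on chromosome X. An uninterrupted run of 27 of them stood between the microRNA genes MIR9143 and MIR9142, downstream of SLITRK2. The remaining precursor, MIR8908N, stood within the miR-506 family, between MIR514 and MIR514B. The miR-506 family itself counted 9 precursors before FMR1, so both families are neighbours in the same stretch of the chromosome. The members described here correspond to 9 of the 28 precursors, namely 4 of miR-8908f, 2 of miR-8908g, 1 of miR-8908j and 2 of miR-8908k. MIR8908G-1 lay within MIR8908G-2. The count table carried 5 entries for them, 1 each for f, g and j and 2 for k.

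**Figure D1:**
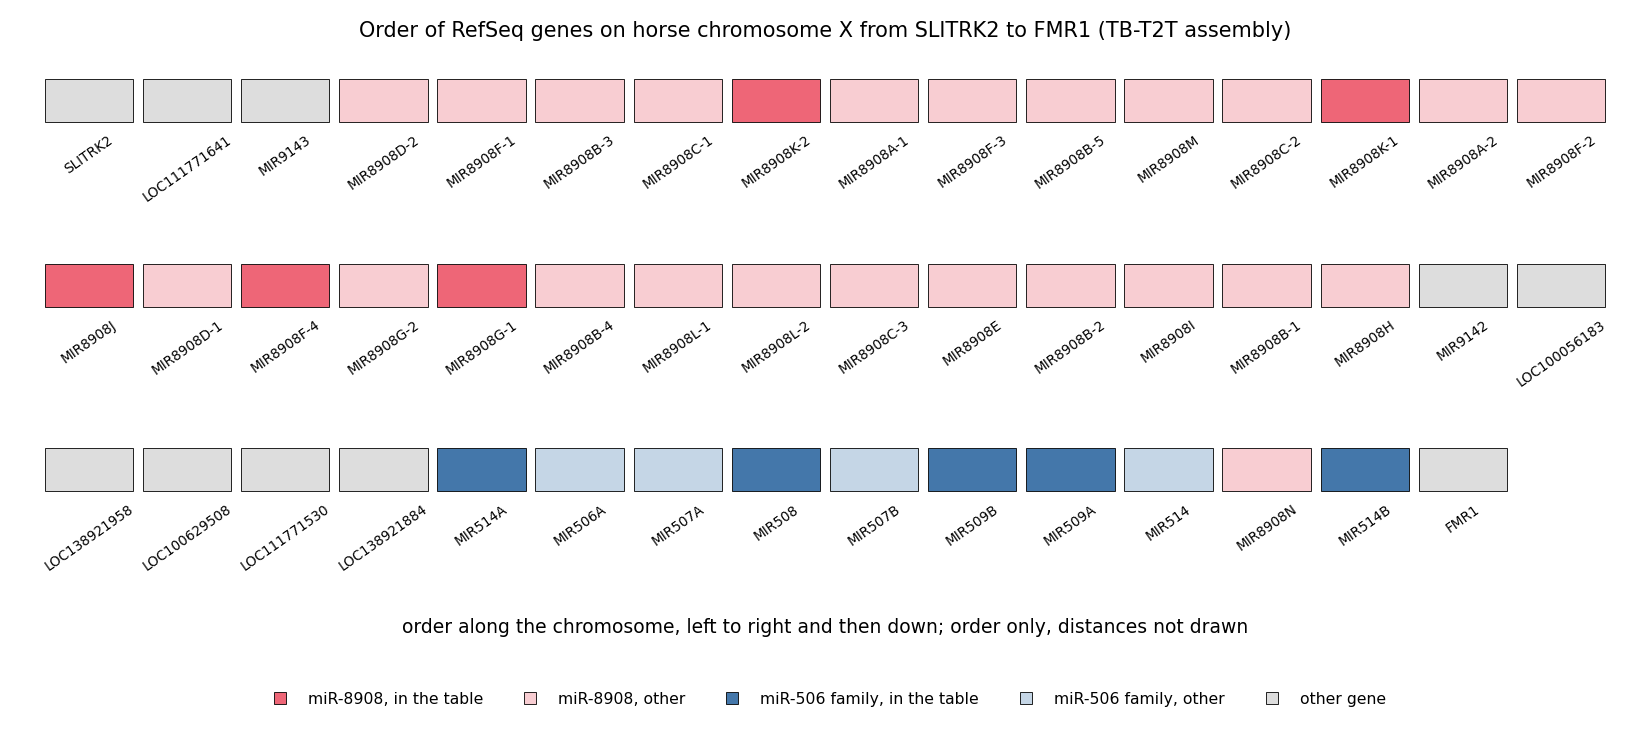
Order of RefSeq genes on horse chromosome X from SLITRK2 to FMR1, 1 box per gene, read left to right and then down, with no distances drawn. Dark red boxes are the 5 miR-8908 precursors with an entry in the count table, light red the other miR-8908 precursors, blue the miR-506 family (dark where the table had an entry); 27 of 28 miR-8908 precursors form 1 run.

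The 2 entries of miR-8908k held the same count in 15 of 17 libraries and differed by at most 2 counts in the other 2, with totals of 8455 and 8458. The values of miR-8908k below therefore cannot be assigned to either precursor. Other letters of the family were not among the annotated names of the table, and whether reads of those copies were counted under f, g, j or k was not tested.

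Counts of annotated mature microRNAs per library ranged from 1.48 M in Sperm to 13.1 M in Pre-puber, and depth moved with the group, from 9.54 to 12.4 M in Infant to 2.18 to 4.62 M in Adult and 1.48 to 2.26 M in Sperm. Levels are given in CPM, counts per 1000000 annotated counts, without further scaling. The summed level of 3 microRNAs that mark germ cells from meiosis on (miR-34c, miR-34b-5p, miR-449a) was 14.6 to 30.7 CPM in Infant, 50.5 to 2896 in Pre-puber, 10270 to 27850 in Puber, 43710 to 71740 in Adult and 57630 to 229700 in Sperm. Markers of stroma and smooth muscle (3 of 5 on the list were in the table) summed to 14330 to 37360 CPM over the testis libraries and to 32.7 to 97.1 in Sperm. The endothelial miR-126-5p was at 126 to 868 CPM in testis and 20.9 to 25.6 in Sperm. Blood markers (4 of 6) summed to 620 to 7502 CPM in testis and 887 to 2046 in Sperm, and miR-122, a liver marker, was at 4.51 to 75.2 CPM in testis and 9924 to 13810 in Sperm. No listed marker present in the table was at 0 in a whole group. Lists for epithelium, striated muscle and gonadal soma had no name among the annotated names. In these bulk samples, more cells of a type and more RNA per cell cannot be told apart.

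Together the 4 members made up a share of annotated counts whose mean was higher at each later group. With SD over 3 libraries each, the share was 0.00212 ± 0.00105% in Infant, 0.127 ± 0.151% in Pre-puber and 0.544 ± 0.311% in Puber. Over 4 libraries each it reached 0.964 ± 0.203% in Adult and 1.099 ± 0.332% in Sperm. In the testis groups nearly all of this share was miR-8908j and miR-8908g. In Sperm, miR-8908k had a mean of 893 CPM beside 1078 for miR-8908g, and was above it in Sperm 1, 3 and 4.

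The most abundant member was miR-8908j (eca-miR-8908j, 7990 ± 2274 CPM in Adult). Its level in the Infant libraries 31a, 31b and 30 was 25.1, 16.97 and 8.72 CPM. In Pre-puber it was 307 CPM in 3a, 340 in 3b and 2449 in 14. The Puber libraries 10, 11 and 19 held 2721, 8254 and 3428 CPM. Every Pre-puber library was above every Infant library, and every Puber library above every Pre-puber library, with Pre-puber 14 close to the lowest Puber value. The Adult libraries 13, 20, 33 and 4 held 5696, 10460, 9337 and 6465 CPM, and Sperm 1 to 4 held 10870, 9121, 11150 and 4885. Puber, Adult and Sperm overlapped, so that the order of their means (4801 ± 3011, 7990 ± 2274 and 9008 ± 2891 CPM) lay within the spread of the libraries. Ranked by group mean among 274 names, miR-8908j went from place 118 in Infant to 50, 27 and 21 in Pre-puber, Puber and Adult, and was in place 21 in Sperm.

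The second most abundant member by group mean, miR-8908g, was at 6.71, 3.56 and 1.87 CPM in Infant 31a, 31b and 30. Pre-puber 3a, 3b and 14 held 74.0, 66.4 and 524 CPM, and Puber 10, 11 and 19 held 249.9, 649 and 917. Pre-puber 14 again stood far above 3a and 3b, this time inside the range of Puber. Adult 13, 20, 33 and 4 held 2032, 712, 2114 and 1356 CPM, and Sperm 1 to 4 held 878, 2212, 705 and 515. Only Pre-puber and Infant failed to overlap among neighbours in the order Adult, Sperm, Puber, Pre-puber, Infant.

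Low in testis, miR-8908k had 0, 8 and 1 counts in Infant 31a, 31b and 30 (0, 0.647 and 0.104 CPM). It stood at 5.41, 4.57 and 32.4 CPM in the Pre-puber libraries 3a, 3b and 14, and at 14.6, 30.1 and 36.4 CPM in Puber 10, 11 and 19. The Adult values in 13, 20, 33 and 4 were 77.3, 35.3, 69.3 and 93.4 CPM. Adult 20 thus lay inside the range of Puber. Sperm 1 to 4 held 1077, 1096, 781 and 619 CPM, and the lowest Sperm library was above the highest Adult library. By group mean, miR-8908k stood in place 109 of 274 in Adult and 41 in Sperm.

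The least abundant member was miR-8908f, with 0 counts in all 3 Infant libraries. That allows a level of up to 0.0951 CPM over the group (3 counts of 31.5 M, counting error only). It was at 0.1525, 0.481 and 8.39 CPM in the Pre-puber libraries 3a, 3b and 14, and at 2.15, 5.975 and 7.325 CPM in Puber 10, 11 and 19. All Puber libraries were below all Adult libraries, where 13, 20, 33 and 4 held 27.6, 20.2, 43.5 and 18.35 CPM. Sperm 1 to 4 held 11.5, 31.3, 8.10 and 1.92 CPM, the last from 3 counts, and overlapped both Adult and Puber.

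**Figure D2:**
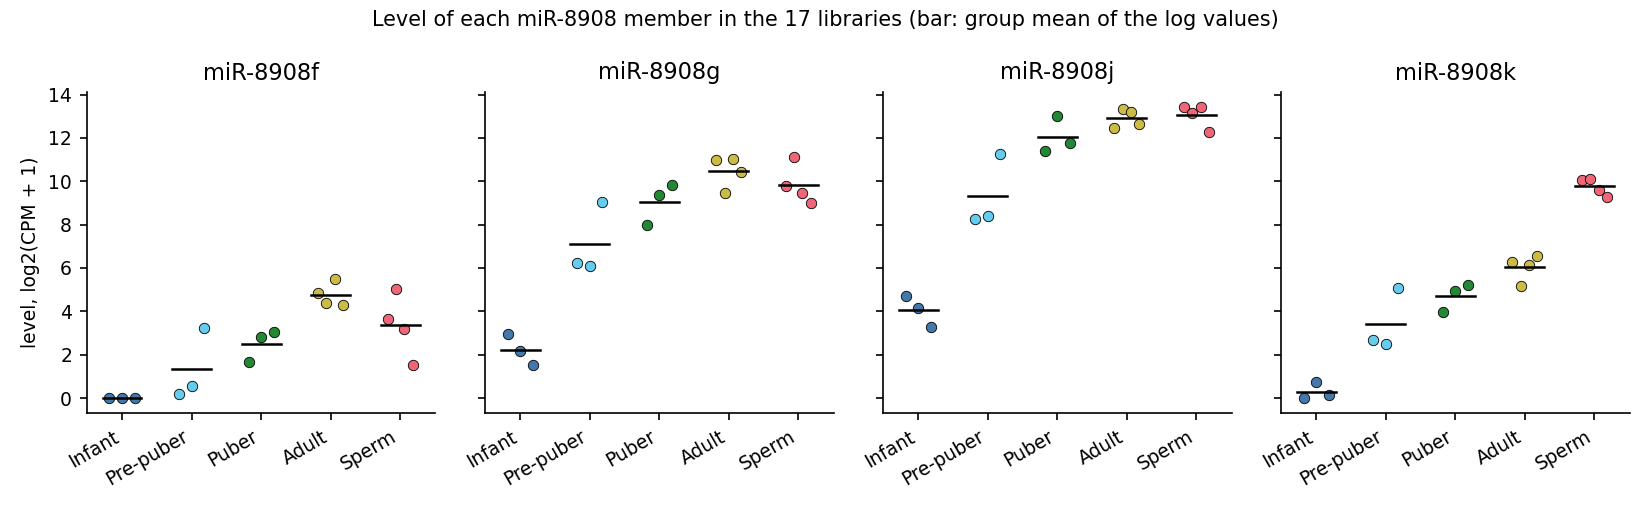
Level of each miR-8908 member as log2(CPM + 1), 1 point per library, 5 groups along the horizontal axis, with a bar at the group mean of the log values. All 4 members are lowest in Infant; miR-8908j averages 7990 CPM in Adult and 9008 CPM in Sperm, while miR-8908k is the member whose Sperm libraries (619 to 1096 CPM) lie apart from Adult (35.3 to 93.4 CPM).

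The members were proposed with the rises of g, j and k from Infant known, so comparisons with Infant are given as a description, without a p-value. Fold changes come from a fit of all 184 tested microRNAs over the 13 testis libraries after TMM scaling (trimmed mean of M-values), and all 4 members passed its filter on low counts. Pre-puber stood above Infant by a log2 fold change of 5.28 ± 0.94 for g, 5.45 ± 0.98 for j and 5.26 ± 1.02 for k (± SE), beside a median of 0.16 over all tested. Between Adult and Infant it was 7.48 ± 1.02 for g, 7.93 ± 1.08 for j and 6.96 ± 1.07 for k, beside a median of -0.14. For miR-8908k the Infant side rests on 9 counts in all. For miR-8908f, Adult was at least 288-fold higher than the 3-count limit of Infant, and at least 175-fold without Infant 31b. All 4 members had every library of Pre-puber, and every library of Adult, above every Infant library, as did 29.9% and 41.8% of the tested microRNAs. Without Pre-puber 14, the Pre-puber difference from Infant was 3.48 for g, 3.64 for j and 3.61 for k.

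From Pre-puber to Puber no member passed the test. The log2 fold change was 2.00 ± 0.84 for j (adjusted p = 0.230, edgeR quasi-likelihood test, Benjamini-Hochberg over 184), 1.14 ± 0.78 for g (adjusted p = 0.474), 0.66 ± 0.80 for k (0.721) and 0.47 ± 1.08 for f (0.858). At an unadjusted p under 0.05 there was 1 member, miR-8908j, among 34 of all 184 tested. Of the 4 members, miR-8908j alone had all Puber libraries above all Pre-puber libraries (16.8% of tested microRNAs did). Of all 184 tested, 1.09% were called higher by edgeR. DESeq2 and limma-voom each called 1 member, also miR-8908j, and called 9.78% and 10.3% of all tested. The result changed without Pre-puber 14: all 4 members were higher in Puber, with log2 fold changes of 3.88 for f, 2.96 for g, 3.83 for j and 2.32 for k (adjusted p 0.00362, 0.00363, 0.00149 and 0.0274). The Pre-puber side of that fit was 3a and 3b alone, which share a title number and may be 1 animal. Its p-values may therefore reflect technical spread only. With libraries of a shared title number summed, and Pre-puber 14 kept, 0 of 182 microRNAs were called. Calls were also more frequent over the whole table without Pre-puber 14, with 30 of 184 microRNAs called (16.3%). The 3 germ cell markers in that library summed to 2896 CPM, the highest of the Pre-puber range, whose lowest value was 50.5. The part of this difference in the result was not tested.

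Between Puber and Adult, no member passed the test either. The log2 fold change of Adult over Puber was 2.14 ± 1.05 for f (adjusted p = 0.301, edgeR), 1.06 ± 0.74 for g (0.453), 1.04 ± 0.76 for k (0.464) and 0.47 ± 0.76 for j (0.767). No microRNA of the 184 was called (0%), 34 had an unadjusted p under 0.05, none of them a member, DESeq2 called 10 and limma-voom 0. Libraries of miR-8908f did not overlap (11.4% of tested microRNAs were higher without overlap), and a fit of the Puber and Adult libraries alone called it, at 2.20 (adjusted p = 0.0232), among 19 of 176 microRNAs called there (10.8%).

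The miR-506 neighbours also stood higher in Pre-puber than in Infant, where 5 of 5 were called higher (median log2 fold change 5.16). Of the germ cell family of miR-34 and miR-449, 3 of 5 were called higher (median 4.25), and of other horse-numbered names (miR-8900 to miR-9199) 3 of 16 higher and 1 lower (median 2.82). Of all 184 tested, 23.9% were called in either direction and 15.8% higher. From Pre-puber to Puber, 0 of 5, 0 of 5 and 1 of 16 were called, with medians of 0.65, 3.69 and 2.03; other scalings called 2 or 3 members of the germ cell family. From Puber to Adult none of the 3 lists had a call, with medians of -0.62, 1.38 and -0.23. Adult against Infant gave 5 of 5 higher, 4 of 5 higher, and 9 higher and 1 lower of 16, with medians of 5.10, 10.20 and 4.73, where 51.6% of all tested were called in either direction and 26.1% higher. The lists share their Infant libraries with the members, and these counts are given side by side only.

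The plot of group means relative to Adult sets the members beside miR-34c, a germ cell microRNA. In Pre-puber 3a and 3b, miR-34c was at 42.6 and 62.7 CPM, against 12.1 to 26.6 in Infant, while miR-8908j was at 307 and 340 CPM against 8.72 to 25.1. The ratio of miR-8908j to miR-34c counts was 7.21 and 5.42 in these 2 libraries and 1.06 in Pre-puber 14. Its mean was 0.903 ± 0.164 in Infant and 0.284 ± 0.123 in Puber (SD over 3 libraries each), then 0.172 ± 0.0746 in Adult and 0.155 ± 0.0885 in Sperm (SD over 4 each). These ratios are a description and were not tested.

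**Figure D3:**
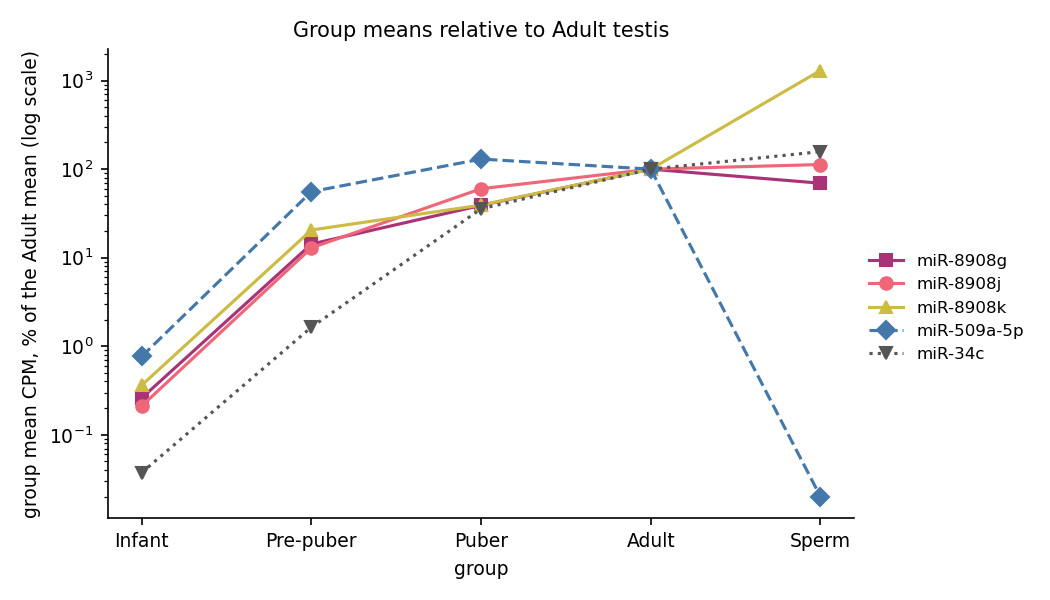
Group mean CPM as a percentage of the Adult mean on a log axis, for miR-8908g, miR-8908j, miR-8908k, the neighbouring miR-509a-5p and the autosomal germ cell microRNA miR-34c, without error bars. In Pre-puber the 3 miR-8908 members stand at 12.9 to 20.5% of Adult, miR-509a-5p at 55.7% and miR-34c at 1.64%. These Pre-puber means include the high library Pre-puber 14. Without it the mean of miR-8908j falls from 1032 to 324 CPM. In Sperm miR-8908k is at 1298% and miR-509a-5p at 0.0201%.

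In Sperm, miR-8908k lay far above its Adult level, and the other members stayed near or below theirs on the CPM scale. On that scale, the mean of miR-8908k was 893 ± 233 in Sperm and 68.8 ± 24.5 in Adult (SD, n = 4 each), 13.0-fold higher, with no overlap between the libraries. The means of miR-8908j were 1.13-fold apart, and those of g and f were lower in Sperm, at 0.694 and 0.482 of Adult. After TMM scaling, the log2 fold change of Sperm over Adult was 5.32 ± 0.54 for k (adjusted p = 3.02e-13, edgeR, Benjamini-Hochberg over 162 tested), 1.76 ± 0.41 for j (adjusted p = 0.000109), 1.11 ± 0.45 for g (0.0209) and 0.58 ± 0.52 for f (0.288). So 3 of 4 members were called higher, in a comparison where 42% of all tested microRNAs were called higher and 81.5% in either direction. The members' median was 1.44 and that of all tested 0.06. Only miR-8908k had all Sperm libraries above all Adult libraries, as 19.8% of tested microRNAs did. RNA isolation also differed, with a shorter DNase treatment and a phenol step for sperm. In this and the other comparisons of Sperm with Adult, sample type and isolation cannot be told apart.

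Scaling decided the direction for f and g. The median of all 162 tested microRNAs was at 0.06 with TMM and at -1.61 with totals alone, where g was at -0.53, f at -1.04 and j at 0.17 (adjusted p = 0.682). With size factors (RLE), f was at -0.10. Relative to the median of all tested, the 4 scalings gave 0.44 to 0.57 for f, 1.00 to 1.08 for g, 1.70 to 1.78 for j and 5.26 to 5.30 for k. For miR-8908k the log2 fold change was between 3.69 and 5.58 over the alternatives tried, left-out libraries included, and it was called in each of them. The call for g was lost with totals alone, RLE, upper-quartile scaling, no filter on low counts, DESeq2, all entries and all 17 libraries in the fit. It was also lost without Adult 20, Adult 33 or Sperm 2, with values of 0.42, 1.05 and 0.56.

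**Figure D4:**
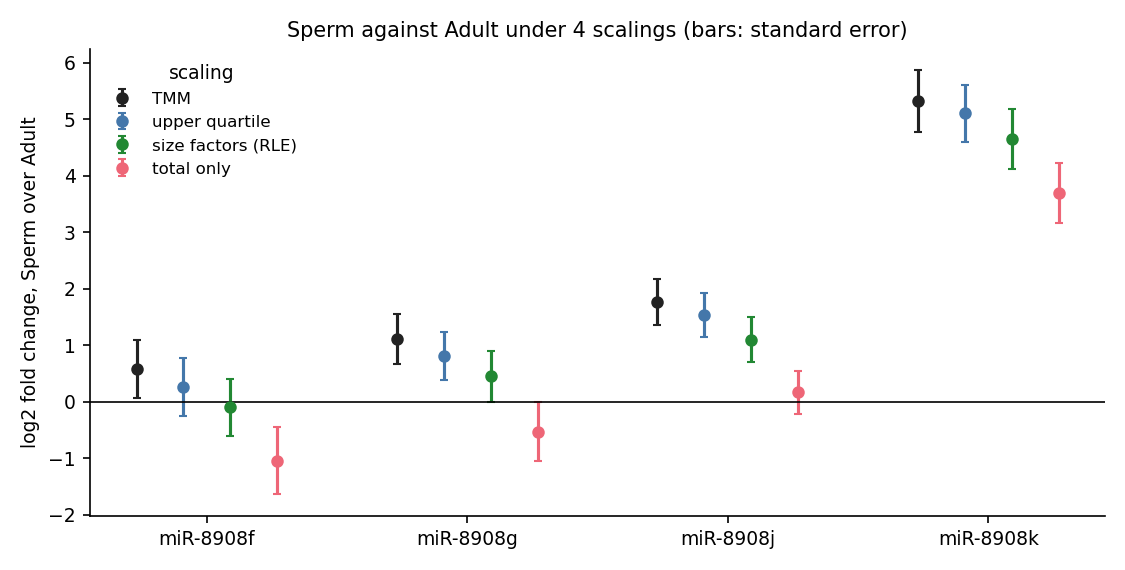
Log2 fold change of Sperm over Adult for the 4 members under 4 scalings of the same counts, with standard errors as bars (n = 4 libraries per group). The value for miR-8908k stays between 3.69 and 5.32, that of miR-8908j between 0.17 and 1.76, and miR-8908f and miR-8908g change sign.

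A ratio of 2 microRNAs within a library does not depend on scaling. There were 0.970 ± 0.525 counts of miR-8908k per 100 counts of miR-8908j in Adult (0.338 to 1.45, SD, n = 4) and 10.4 ± 2.55 in Sperm (7.002 to 12.7, n = 4). The difference of the mean log2 ratios was 3.60 ± 0.52 (SE), a 12.1-fold difference of geometric means, with p = 0.0286 by exact permutation (two-sided, and no smaller value is possible with 4 libraries a side). Adjusted over the 2 ratios tested, this exact permutation p is also 0.0286. Both tests were added after the values were seen, with the Sperm and Adult libraries already apart. Both p-values were therefore bound to this lowest value, and the adjustment does not cover the choice of ratios. They are given as a description only. In the other testis groups the ratio was 1.67 ± 1.95 in Infant, 1.48 ± 0.247 in Pre-puber and 0.654 ± 0.363 in Puber (n = 3 each). Set against miR-8908g in the same way, miR-8908k came to 4.73 ± 1.60 per 100 counts in Adult and 101 ± 34.5 in Sperm. Sperm 2 stood apart there at 49.6, with Sperm 1, 3 and 4 at 123, 111 and 120.

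The miR-506 neighbours on the same chromosome were far lower in Sperm than in Adult. The most abundant, miR-509a-5p, was at 24150 ± 2269 CPM in Adult (SD, n = 4) and at 4.85 ± 3.28 in Sperm (n = 4), from 38 counts, with a log2 fold change of -10.65 ± 0.63 (adjusted p = 3.15e-22, edgeR). No count of miR-514a, miR-509b, miR-508-5p or miR-514b was found in Sperm, where 3 counts of 7.22 M would be 0.416 CPM. Against that limit over the group, Sperm was at least 1123-fold lower for miR-514a, 112-fold for miR-509b, 81.1-fold for miR-508-5p and 12.7-fold for miR-514b. All 4 of the family that were tested were called lower, under each of the 4 scalings, where 39.5% of all 162 tested were called lower with TMM. In the germ cell family 4 of 5 were called higher and 1 lower (median 2.59), and of other horse-numbered names 4 of 8 higher and 1 lower (median 1.24). With totals alone these became 2 higher and 1 lower (median 1.03), and 1 higher and 3 lower (median -0.31).

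The ratio of miR-8908j to miR-509a-5p counts separates Sperm from every testis group. It was 0.0885 ± 0.0328 in Infant, 0.0726 ± 0.0396 in Pre-puber and 0.165 ± 0.116 in Puber (SD, n = 3 each), 0.337 ± 0.115 in Adult and 2357 ± 1434 in Sperm (n = 4 each). Between Sperm and Adult the log2 ratio differed by 12.63 ± 0.52 (exact two-sided permutation p = 0.0286, adjusted over the same 2 ratios 0.0286). This test too was added with the libraries seen to be apart, so its p-value is a description only. Stromal markers summed to 14330 to 29420 CPM in Adult and 32.7 to 97.1 in Sperm, and miR-122 stood at 9924 to 13810 CPM in Sperm against 29.8 to 75.2 in Adult. The part of these differences in the result was not tested.

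**Figure D5:**
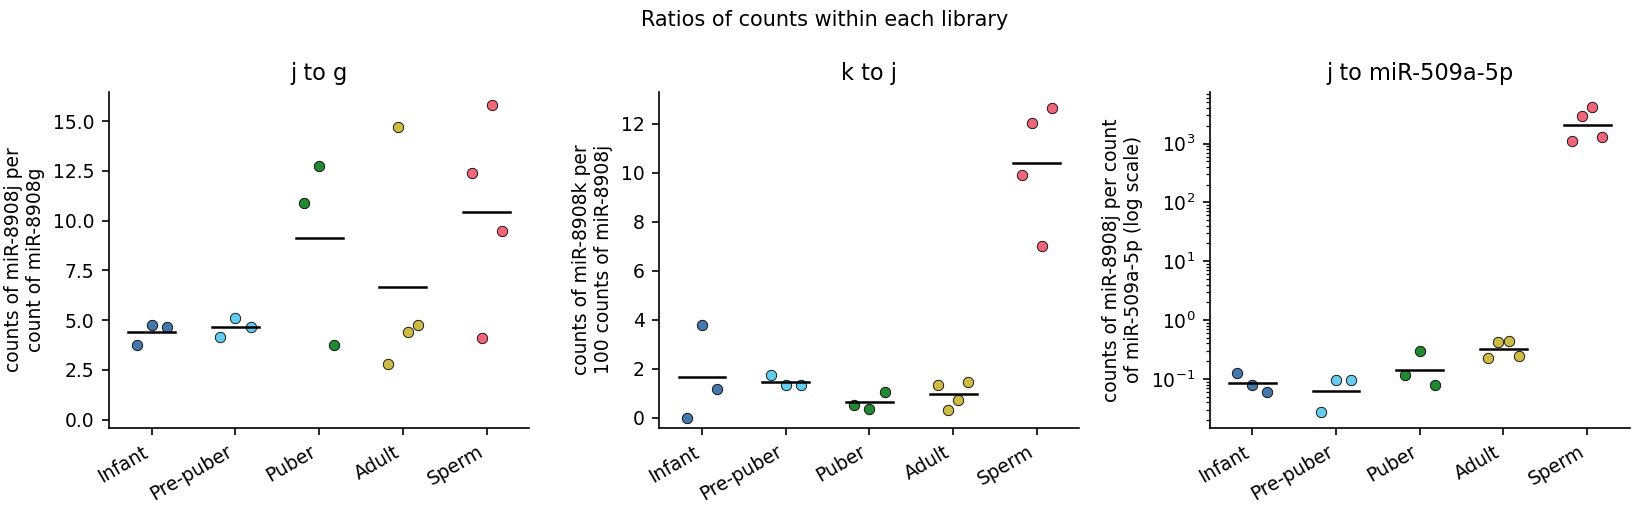
Ratio of counts within each library, 1 point per library: miR-8908j per count of miR-8908g, miR-8908k per 100 counts of miR-8908j, and miR-8908j per count of miR-509a-5p (log axis), with bars at group means (geometric mean in the third panel). Sperm stands at 7.002 to 12.7 in the second panel against 0.338 to 1.45 in Adult, and at 1118 to 4131 in the third against 0.229 to 0.445.

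Correlations between members across libraries were higher in testis than when Sperm was included. Pearson correlations of log2(CPM + 1) between pairs ran from 0.878 to 0.986 over the 13 testis libraries and from 0.719 (f with k) to 0.973 (g with j) over all 17. Within Adult the members parted, with the highest miR-8908j (10460 CPM) and the lowest miR-8908g (712) and miR-8908k (35.3) in Adult 20. The points share group and depth. The rise from Infant, on which the family is treated as selected, also enters the correlations, so these are descriptions without a test. By the same measure over 17 libraries, and with the 4 members left out of the ranking, the 5 microRNAs most like miR-8908j were miR-8971 (0.966), miR-34c (0.952), miR-34b-5p (0.931), miR-449a (0.929) and miR-9a (0.904). The nearest to miR-8908g outside the family were miR-8971 (0.943), miR-34c (0.943), miR-449a (0.925), miR-34b-5p (0.922) and miR-20a (0.912). For miR-8908f, again outside the family, they were miR-34c (0.883), miR-34b-5p (0.879), miR-449a (0.872), miR-8909 (0.870) and miR-872 (0.862). Those nearest to miR-8908k outside the family were miR-93 (0.966), miR-217 (0.966), miR-340-5p (0.951), miR-449b (0.944) and miR-499-5p (0.940).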

How the data were processed

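Small RNA of 17 horse libraries was isolated with TRIzol and ligated to adapters, per the labels' protocols; DNase treatment was shorter for sperm, which had a phenol step. The submitters' processing notes name Trimmomatic and EquCab3.0; for the aligner and counting program, none is given in the sources used here. In all, 1763 entries were deposited (302 annotated, 1461 predicted hairpins) with whole read counts and the authors' RPM columns, used as an alternative level. No reads were processed again. Members and lists were chosen with earlier results of these data known.

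Annotated counts, 1 entry per mature name, were tested with edgeR 4.0.16 in R 4.3.3 (filterByExpr, TMM, quasi-likelihood F test, adjusted p under 0.05), 184 names over 13 testis libraries and 162 over the 8 Adult and Sperm libraries. Standard errors come from the F statistic. The script was tested on data simulated from all entries with a fixed spread, which need not match the spread of the members. DESeq2 1.42.0 and limma-voom 3.58.1 were alternatives. All 4 members passed both filters, so the permutation test planned for members below the filter was not needed. Every member is named; others follow fixed lists and a rule of likeness (the 5 highest correlations per member). Intervals and limits cover counting error only.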

Additional observations from a re-analysis of the deposited data

Results flagged for a closer look

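The ratio of miR-8908j to miR-8908g counts had 1 library far from the others in Adult. Adult 20 held 14.7 counts of miR-8908j per count of miR-8908g, and Adult 13, 33 and 4 held 2.80, 4.42 and 4.77. The gap to the nearest library was 0.835 of the group's range, above Dixon's critical value for 4 samples. It was the only one flagged among 14 groups tested, and chance flags about 1 in 20.

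The deposited table also carries a column of totals, which no comparison uses. Its totals exceed the sum of the 17 libraries by 94 counts for miR-8908f, 7774 for miR-8908g, 36814 for miR-8908j and 422 for miR-8908k. These are 12.5, 14.5, 11.9 and 4.75% of the totals, beside 8.70% over all entries. The origin of these counts is not given in the sources used here.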

How the results depend on the processing

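Over 48 results and 541 alternative values, 485 kept their direction and side of the threshold or stayed within their error; the cause of the others was not tested except where named. Depth limits miR-8908f and miR-8908k in Infant (0 and 9 counts). No paired analysis was possible because Adult and Sperm share only the number 4 and no testis groups share any.

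Puber against Pre-puber: a fit of all entries, which holds the predicted hairpins, gave -0.86 for f, -0.33 for g and -0.82 for k; summed libraries with shared title numbers gave -0.02 for f. DESeq2 (2.19, adjusted p = 0.0387) and limma-voom (2.68, 0.0359) called j, so 1 member each. Leaving out 1 library gave -0.10 to 3.88 for f, 0.70 to 2.96 for g, 1.26 to 3.83 for j, 0.25 to 2.32 for k and 0 to 4 called members. Adult against Puber: with these 2 groups alone f was 2.20 and 1 member was called. Pre-puber against Infant without 1 library: 3.48 to 6.03 for g, 3.64 to 6.02 for j and 3.61 to 7.44 for k. Adult against Infant: g, j and k were 8.58, 8.88 and 7.91 with totals alone and 5.78, 6.24 and 4.89 with all entries, k was 7.61 with limma-voom, and without 1 library g was 7.06 to 8.24 and k 6.51 to 9.15.

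Sperm against Adult: f was -0.10 with RLE and DESeq2, -1.04 with totals alone, -0.35 with all entries and -0.26 with all 17 libraries. In g the value was 0.45 with RLE and DESeq2, 0.81 with upper-quartile scaling, 0.92 unfiltered, 0.25 with all entries, 0.32 with all 17 libraries and -0.53 with totals alone. For j it was 0.17 with totals alone, 0.60 with all entries and 1.10 with all 17 libraries; each of these 3 settings called 1 member, miR-8908k. Without 1 library f was -0.23 to 0.93, g 0.42 to 1.33 and 2 to 3 members were called. Summing both entries of miR-8908k, which counts the same reads again, gave 54.0, 137 and 1786 CPM in Puber, Adult and Sperm.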

Other observations

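The ratio of miR-8908j to miR-8908g counts fell into 2 ranges with nothing between them. It was 9.48 to 15.8 in 6 libraries, namely Puber 10 (10.9) and 11 (12.7), Adult 20 (14.7), and Sperm 1 (12.4), 3 (15.8) and 4 (9.48). In the other 11 libraries, which include all Infant and Pre-puber libraries, it was 2.80 to 5.12. These ranges were seen in the data and cross the study's groups. The counts of miR-514a per 100 counts of its X-linked neighbour miR-509a-5p were 1.07 and 1.07 in Puber 10 and 11 and 0.689 in Adult 20, the lowest of their groups. Infant 30, in the lower range of the first ratio (4.67), was at 1.09. In Sperm miR-514a had 0 counts, beside only 4 to 22 counts of miR-509a-5p per library, too few to give this ratio. Other neighbours did not share this order. Relative to miR-509a-5p, miR-508-5p and miR-509b were lowest in Puber 19 and Adult 13. For miR-508-5p, Puber 10, 11 and 19 had 409, 330 and 321 counts, beside 139184, 125864 and 171211 of miR-509a-5p. On low counts, miR-514b was lowest in Puber 11 and Adult 4.

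Among the 43 predicted hairpins on chromosome X in the table, 3 shared a run of 9 bases that no other of the 1461 predicted hairpins held on either strand. They were picked after their values were seen, and their relation to the miR-8908 precursors was not tested. They lay within 20627 bases on the minus strand of EquCab3.0, at X:119901738-119901793, X:119911162-119911218 and X:119922308-119922365 as the table gives them, with end minus start equal to the length. The hairpin sequences are printed 5′ to 3′ with the shared run in capitals.
hairpin 1: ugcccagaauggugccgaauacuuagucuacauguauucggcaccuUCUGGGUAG
hairpin 2: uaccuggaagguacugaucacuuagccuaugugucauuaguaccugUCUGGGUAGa
hairpin 3: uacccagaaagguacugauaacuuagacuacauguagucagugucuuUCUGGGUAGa
On the same CPM scale, hairpin 1 stood at 1.56 to 7.24 in Infant, 49.2 to 401 in Pre-puber, 213 to 549.9 in Puber, 588 to 1110 in Adult and 11530 to 20530 in Sperm. Hairpin 2 stood at 0.629 to 1.13, 14.0 to 146, 66.1 to 299, 365 to 1068 and 2132 to 7870 in the same order. Hairpin 3 never passed 6.06 CPM. For hairpins 1 and 2, as for miR-8908k and 19.8% of the 162 annotated microRNAs tested, every Sperm library was above every Adult library. Hairpin 3 overlapped, at 0 to 6.06 CPM in Adult and 2.025 to 3.20 in Sperm. The share of all predicted hairpins without overlap was not determined.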
